A study of Homo sapiens with 6 samples.

Results

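Transcripts of 10 feedback inhibitors of growth factor signalling were examined in PC3 cells, an established human prostate cancer cell line. They comprised 7 dual-specificity phosphatase genes (DUSP1, DUSP3, DUSP4, DUSP5, DUSP6, DUSP10 and DUSP14) and 3 Sprouty genes (SPRY1, SPRY2 and SPRY4). Members were chosen by name, with earlier results of these data known. A probe set is the group of oligonucleotides that reports 1 transcript on the array. It was taken when its only annotated gene symbol was that of a member. That gave 17 of the 22277 probe sets in the table. Of the 17, 16 passed the filter on dim values, and all 10 genes were among the 7035 genes tested.

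The series compared RNA of 2 kinds of PC3 culture on Affymetrix arrays, with 3 arrays in each group. The control group (replicates 1 to 3) was called wild type in titles and genotype labels and vector only in its source label. The PSMA group (replicates 4 to 6) was labelled as overexpressing human prostate-specific membrane antigen, the product of FOLH1, from the plasmid pLNCX-PSMA. Per the labels' protocols, cells were grown in RPMI medium, transfected with FuGENE 6 and selected with puromycin; whether 1 clone or a pool was used is not given in the sources used here, nor is the promoter that drove the antigen. The labels do not say that replicates came from separate cultures, so the spread behind each p-value may be purely technical and covers these arrays alone.

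The targeted gene went against the labels. The brightest FOLH1 probe set, shared with the paralog FOLH1B, read 417.3 to 548 on the arrays labelled control and 8.58 to 15.1 on those labelled PSMA, and the probe set of FOLH1 alone read 59.7 to 61.5 and 24.4 to 32.0. Every direction below therefore follows the labels as deposited: "rose" and "higher" refer to the arrays labelled PSMA, on which FOLH1 signal was low. Epithelial markers of the line were bright (EPCAM at 4715 and 3704, KRT18 at 6362 and 4814, means of the control and PSMA groups), while KLK3, a marker of luminal prostate cells, lay below the filter. None of the 8 leucocyte markers with a probe set passed the filter; their summed signal ranged from 150 to 157 and from 156 to 160. Of 10 fibroblast and endothelial markers 2 passed the filter and 0 were called, with sums of 292 to 311 and 283 to 308. The sums hide differences among dim, untested markers. LUM read 27.4 to 41.2 on control arrays and 5.02 to 7.32 on PSMA arrays. PDGFRA (means 27.1 and 33.8) and CDH5 (6.44 and 7.28) were higher on the PSMA group without overlap. Of the leucocyte markers, ITGAM (21.1 and 28.5) was higher on the PSMA group and LCK (42.0 and 37.0) lower, also without overlap. Groups overlapped for the other markers of both lists. Signal of the array's control for mid-28S ribosomal RNA was 1498 ± 63.1 (SD, n = 3) on the control group and 675 ± 4.29 on the PSMA group. The 5' 28S control (means 5778 and 4047) was also lower on the PSMA group without overlap. So was each GAPDH control, the 3' one with means of 10183 and 9327. The dim 3' 28S control (19.3 and 20.4) and all actin controls overlapped. The part of these controls in the results was not tested.

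Growth factor receptors signal through RAS, RAF and MEK to the MAP kinase ERK, and the cascade induces its own brakes. Dual-specificity phosphatases inactivate MAP kinases by removing phosphate from both the threonine and the tyrosine of the activation loop. They differ in place and substrate: DUSP6 is cytoplasmic and selective for ERK, DUSP5 is nuclear and selective for ERK, and DUSP1, DUSP4 and DUSP10 also act on the stress kinases p38 and JNK. Sprouty proteins act further upstream, where they limit the passage of the signal from receptor tyrosine kinases to RAS and RAF. Because ERK activity induces many of these genes, DUSP6 and SPRY4 among them, their transcripts are widely used as readouts of the pathway.

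The family split. DUSP5 and SPRY4 rose, while DUSP1, DUSP6, DUSP10, DUSP14, SPRY1 and, by a small margin, DUSP4 fell. DUSP3 and SPRY2 did not pass the threshold (limma, Benjamini-Hochberg adjusted p of 0.05 over all genes tested). In all, 8 of 10 members passed, 2 higher and 6 lower, where 63.6% of all tested genes passed, 30.1% higher and 33.5% lower; a high share of called members is thus near the background of this comparison. Sizes are read separately from calls. The median size of the members' log2 differences was 0.50 against 0.22 over all tested genes, and 2 members changed by 2-fold or more, as did 4.41% of all tested genes. Members were chosen with earlier results of these data known, so this contrast in size is no test of the family.

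**Figure D1:**
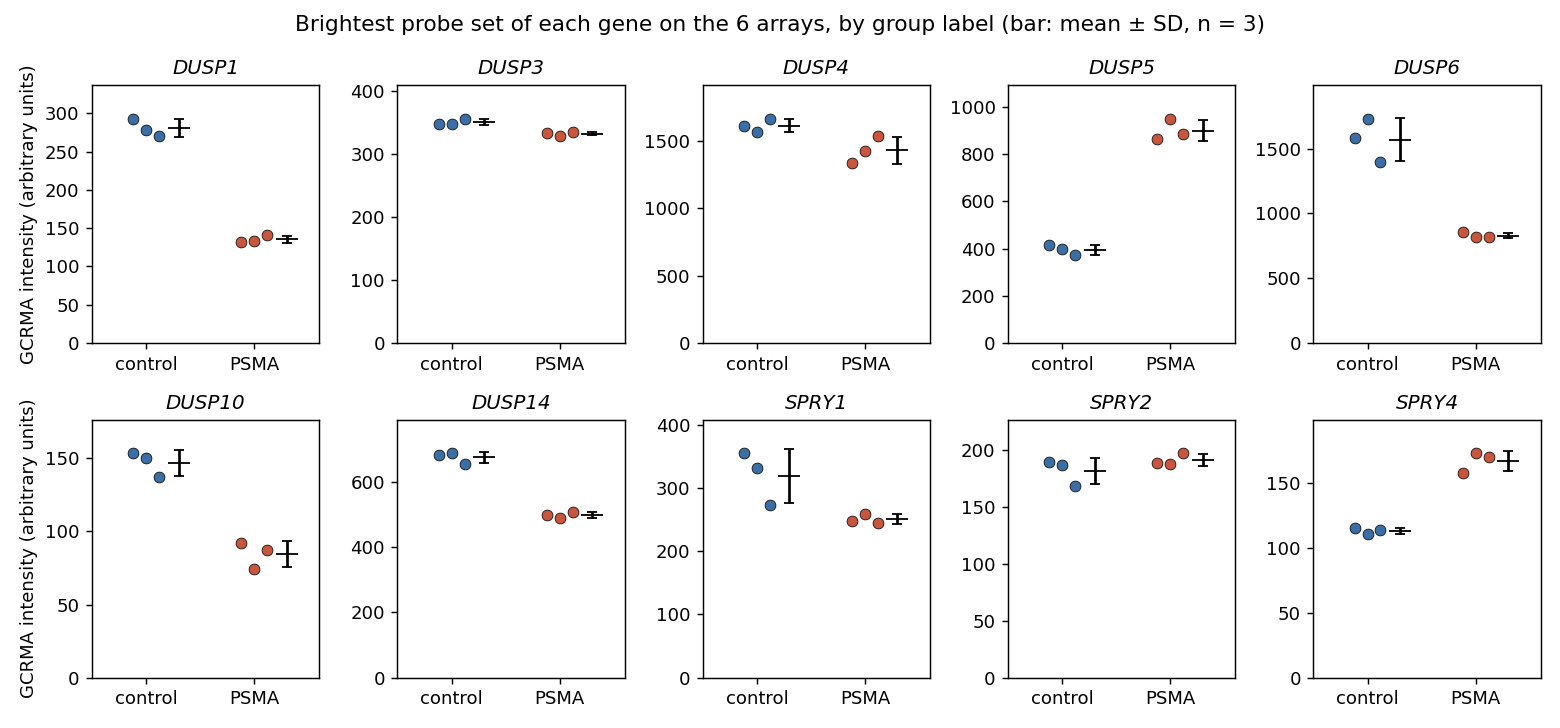
GCRMA intensity (arbitrary units, axis from 0) of the brightest probe set of each member on the 6 arrays; points are arrays, in the order of their replicate numbers, and bars are mean ± SD (n = 3). The 3 PSMA points of DUSP5 and SPRY4 lie above all control points, those of SPRY2 overlap them, and those of the other 7 members lie below.

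DUSP5, the nuclear ERK phosphatase, read 415, 395.9 and 371 on the 3 control arrays and 863, 951 and 884 on the 3 PSMA arrays. The lowest PSMA array stood above the highest control array by a wide gap, and the spread within each group was small. The rise was 2.28-fold (log2 difference 1.19, SE 0.058; limma adjusted p = 6.62e-07), larger in size than that of 97.1% of tested genes.

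DUSP1, an immediate early gene whose product acts on p38, JNK and ERK, moved the other way. Its brighter probe set read 293, 279 and 270.0 on control arrays and 132, 134 and 141 on PSMA arrays. The groups did not come near each other, and the fall was 2.07-fold (log2 difference -1.05, SE 0.049; limma adjusted p = 5.78e-07). The second DUSP1 probe set was dim on all 6 arrays, at 15.4 to 21.7 in the control group and 17.5 to 19.0 in the PSMA group. It lay below the filter, was not tested, and shows no difference beyond the spread.

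DUSP4, another nuclear phosphatase of MAP kinases, gave 2 different answers. On its brighter probe set the control arrays read 1614, 1565 and 1667 and the PSMA arrays 1333, 1423 and 1536. These groups lay close together without overlapping, a log2 difference of -0.18 (SE 0.059; limma adjusted p = 0.0274). That call was lost without control replicate 1, control replicate 3, PSMA replicate 4 or PSMA replicate 5 (limma adjusted p = 0.0651, 0.0729, 0.089 and 0.0706) and with no filter on dim probe sets (0.0707). With the mean of both probe sets standing for the gene, DUSP4 fell by 0.43 on the log2 scale (limma adjusted p = 0.000155). The second probe set read 1415, 1365 and 1366 on control arrays and 805, 855 and 922 on PSMA arrays, well apart. Its log2 difference was -0.69 (limma, adjusted p = 1.98e-05 over all probe sets). The log2 ratio of the second to the first was -0.29 to -0.19 on control arrays and -0.74 to -0.73 on PSMA arrays, so the 2 probe sets changed by unequal amounts. What part of the transcript each probe set reads was not examined.

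DUSP6, the cytoplasmic ERK phosphatase, fell on all 3 of its probe sets. The brightest read 1580, 1732 and 1398 on control arrays and 854, 817 and 814 on PSMA arrays. Control arrays varied more than PSMA arrays, yet the lowest control value lay far above the highest PSMA value. The fall was 1.89-fold (log2 difference -0.92, SE 0.074; limma adjusted p = 1.17e-05). The second probe set went from 1107, 1048 and 936 to 511, 504 and 542, and the third from 641, 605 and 627 to 348, 347 and 337. All 3 gave nearly one size, with log2 differences of -0.99 for the second and -0.86 for the third.

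DUSP5 and DUSP6 thus moved apart although both phosphatases are selective for ERK. Within each array, the log2 ratio of DUSP5 to DUSP6 signal was -2.13 to -1.91 in the control group and 0.015 to 0.22 in the PSMA group, a change of 2.11 (4.31-fold). This pair was chosen after its values were seen. A ratio of 2 probe sets shows unequal change, not which transcript is more abundant.

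DUSP10, a phosphatase that prefers p38 and JNK over ERK, read 153, 150 and 137 on control arrays and 92.1, 74.6 and 87.3 on PSMA arrays. All control values were well above all PSMA values, a 1.74-fold fall (log2 difference -0.80, SE 0.082; limma adjusted p = 4.62e-05). The dimmer DUSP10 probe set went the same way, from 57.2, 52.7 and 52.6 to 40.4, 34.9 and 32.7. It passed the filter on exactly the 3 control arrays, so it could hardly have passed without a difference, and its log2 difference of -0.59 adds no support.

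The 2 small phosphatases without a kinase-binding domain, DUSP3 and DUSP14, differed little or moderately. DUSP14 read 683, 688 and 656 on control arrays and 499, 491 and 507 on PSMA arrays. Both groups were tight and apart, a 1.35-fold fall (log2 difference -0.44, SE 0.042; limma adjusted p = 3.17e-05). DUSP3 read 347, 347 and 356 against 333, 328 and 334 on its brightest probe set, and its 2 groups came within a few percent of each other. Its log2 difference was -0.08 with a 95% interval of -0.17 to 0.014 (limma adjusted p = 0.123). The other DUSP3 probe sets went from 145, 139 and 149 to 123, 126 and 124 and from 80.3, 86.5 and 84.9 to 57.1, 57.5 and 65.0. Both passed among probe sets (limma, log2 differences -0.21 and -0.49), and with the mean of the 3 probe sets standing for the gene DUSP3 fell by 0.26 on the log2 scale (limma adjusted p = 0.000613). The call on DUSP3 therefore depends on the choice of probe set.

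The 3 Sprouty genes, each with 1 probe set, comprised a rise, a fall and a gene that did not pass. SPRY4 read 115, 110 and 114 on control arrays and 158, 173 and 170.1 on PSMA arrays. Its groups were well apart, a 1.47-fold rise (log2 difference 0.56, SE 0.049; limma adjusted p = 1.82e-05). SPRY1 read 355, 331 and 272 against 248, 259 and 245. Control replicate 3 lay close to the highest PSMA array and the other control arrays lay further off. SPRY1 fell 1.27-fold (log2 difference -0.34, SE 0.089; limma adjusted p = 0.0095). SPRY2 read 189, 187 and 168 against 188, 188 and 197, with overlapping groups. Its log2 difference was 0.08, with a 95% interval of -0.050 to 0.20 (limma adjusted p = 0.255). The log2 ratio of SPRY4 to SPRY1 signal within an array was -1.62 to -1.26 in the control group and -0.66 to -0.53 in the PSMA group. This ratio restates the rise of SPRY4 and the fall of SPRY1 and adds no support. It does not show which transcript is more abundant.

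**Figure D2:**
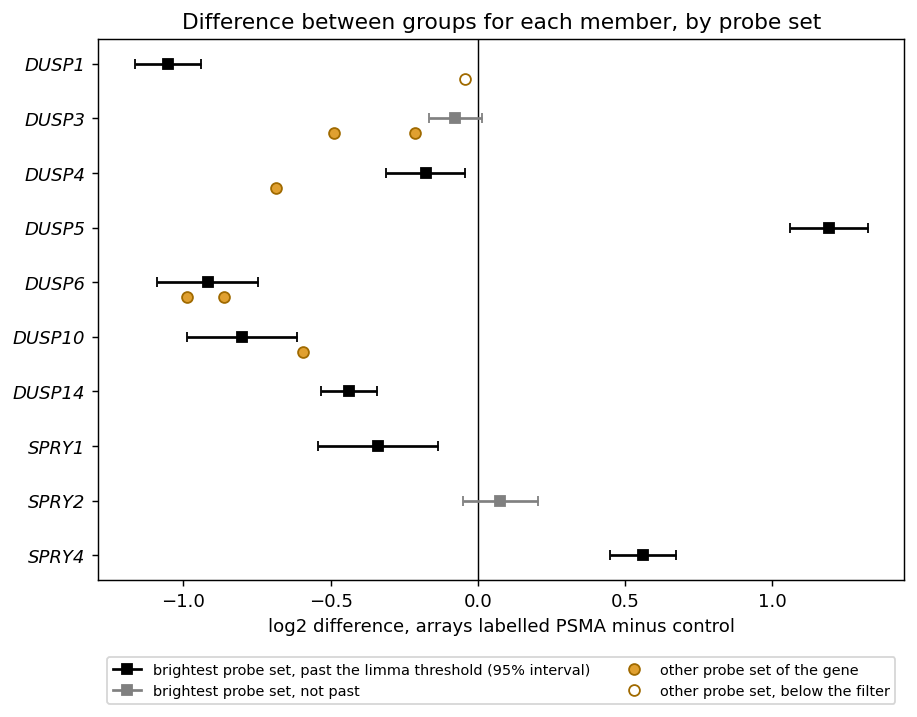
Log2 difference (PSMA minus control) of each member. Squares are the brightest probe set with its 95% interval from limma (black past the threshold, grey not), and circles are the gene's other probe sets (open: below the filter). The 3 DUSP6 probe sets lie together near -0.92, while those of DUSP4 (-0.18 and -0.69) and DUSP3 (-0.08, -0.21 and -0.49) are spread.

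Over probe sets, 14 of the 16 that passed the filter were called, 2 higher and 12 lower, against 60.6% of all probe sets tested; the 12 include the dimmer DUSP10 probe set, which passed the filter through the control arrays alone. By gene, the groups did not overlap in 9 of 10 members, against 69.5% of all tested genes. An exact two-sided permutation test over 3 against 3 arrays cannot go below 0.10; it gave 0.1 for each of those 9 members and 0.3 for SPRY2. When limma tested against a minimum fold of 1.5, DUSP1, DUSP5 and DUSP6 passed, 3 of 10 members where 7.48% of all tested genes did. Because members were chosen with earlier results known, this contrast is no test of the family either.

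Promoter sequences are shown for DUSP1, the member with the largest fall, and for SPRY1 and SPRY4, relatives that moved in opposite directions. Of the 10 members, 8 had an entry in the RefSeq promoter table (build GRCh38.p14), with 12 start sites. DUSP4 and DUSP5 had none, so no sequence is shown for DUSP5, the member with the largest difference. The 250 bases before each start were searched on both strands for the cyclic AMP response element TGACGTCA, the AP-1 site TGANTCA, the ETS site CCGGAAG and the CArG box of serum response factor, which are elements named for factors that act below cyclic AMP and MAP kinase signalling. None of these matches overlapped another. Capitals mark matches.
DUSP1 promoter, chr5:172771196-172771445, minus strand: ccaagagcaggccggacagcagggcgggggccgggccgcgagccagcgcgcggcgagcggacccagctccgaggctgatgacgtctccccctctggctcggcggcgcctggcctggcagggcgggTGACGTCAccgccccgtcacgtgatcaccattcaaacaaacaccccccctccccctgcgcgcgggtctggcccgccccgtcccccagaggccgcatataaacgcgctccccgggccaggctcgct
SPRY1 promoter, chr4:123398136-123398385, plus strand: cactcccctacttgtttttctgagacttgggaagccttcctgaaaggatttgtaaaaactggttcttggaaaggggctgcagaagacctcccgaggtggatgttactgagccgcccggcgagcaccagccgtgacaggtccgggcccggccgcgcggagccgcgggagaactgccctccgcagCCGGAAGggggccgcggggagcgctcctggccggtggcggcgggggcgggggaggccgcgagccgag
SPRY4 promoter, chr5:142324248-142324497, minus strand: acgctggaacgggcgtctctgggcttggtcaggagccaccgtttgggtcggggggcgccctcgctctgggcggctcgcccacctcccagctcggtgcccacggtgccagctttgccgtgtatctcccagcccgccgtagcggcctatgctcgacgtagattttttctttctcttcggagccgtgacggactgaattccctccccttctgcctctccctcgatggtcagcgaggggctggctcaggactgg
The DUSP1 window held 1 TGACGTCA, which begins 125 bases before the start; 1.65% of the 35116 windows in the table held one. The second SPRY1 start had 1 CCGGAAG, a site found in 8.52% of windows. The other 10 member windows, SPRY4 among them, held none of these 4 elements. AP-1 sites and CArG boxes, present in 6.57% and 1.16% of all windows, were found in 0 of the 12. A match is a description of the letters, and its absence here says only that they are not in this window.

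Each member was also set beside the 7 tested genes on either side of it in RefSeq order. These stretches spanned from 1.355 megabases (DUSP3) to 24.97 megabases (SPRY2), so a neighbour here need not be physically adjacent. SPRY2 lay in a raised stretch of chromosome 13. All 14 of its neighbours rose, by 0.35 to 2.44 on the log2 scale with a median of 0.65, and the median over the other 125 tested genes of the chromosome was 0.63. Its nearest tested genes on the 2 sides, RBM26 and TGDS, rose by 1.04 and 1.14. SPRY2 at 0.08 lay below every one of the 14. It was the one tested gene of the 15 in this stretch that did not pass the threshold.

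DUSP10, on chromosome 1, also lay among mostly raised genes: 10 of its 14 neighbours rose and 2 fell, with a median of 0.42, while DUSP10 itself fell. HLX, the homeobox gene next to it among tested genes, was one of the 2 that fell (-0.49). Around DUSP1, 0 of 14 neighbours rose and 5 fell; around each of the other 7 members some neighbours rose and some fell. For these 8 members, the median differences of the neighbours lay between -0.14 (DUSP4) and 0.02 (SPRY1). DUSP5 stood above all 14 of its neighbours, whose differences ran from -0.66 to 0.46. DUSP1, DUSP6, DUSP10 and DUSP14, like SPRY2, each stood below all 14 of theirs. How often other tested genes stand outside their neighbours was not examined. These positions were not tested.

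**Figure D3:**
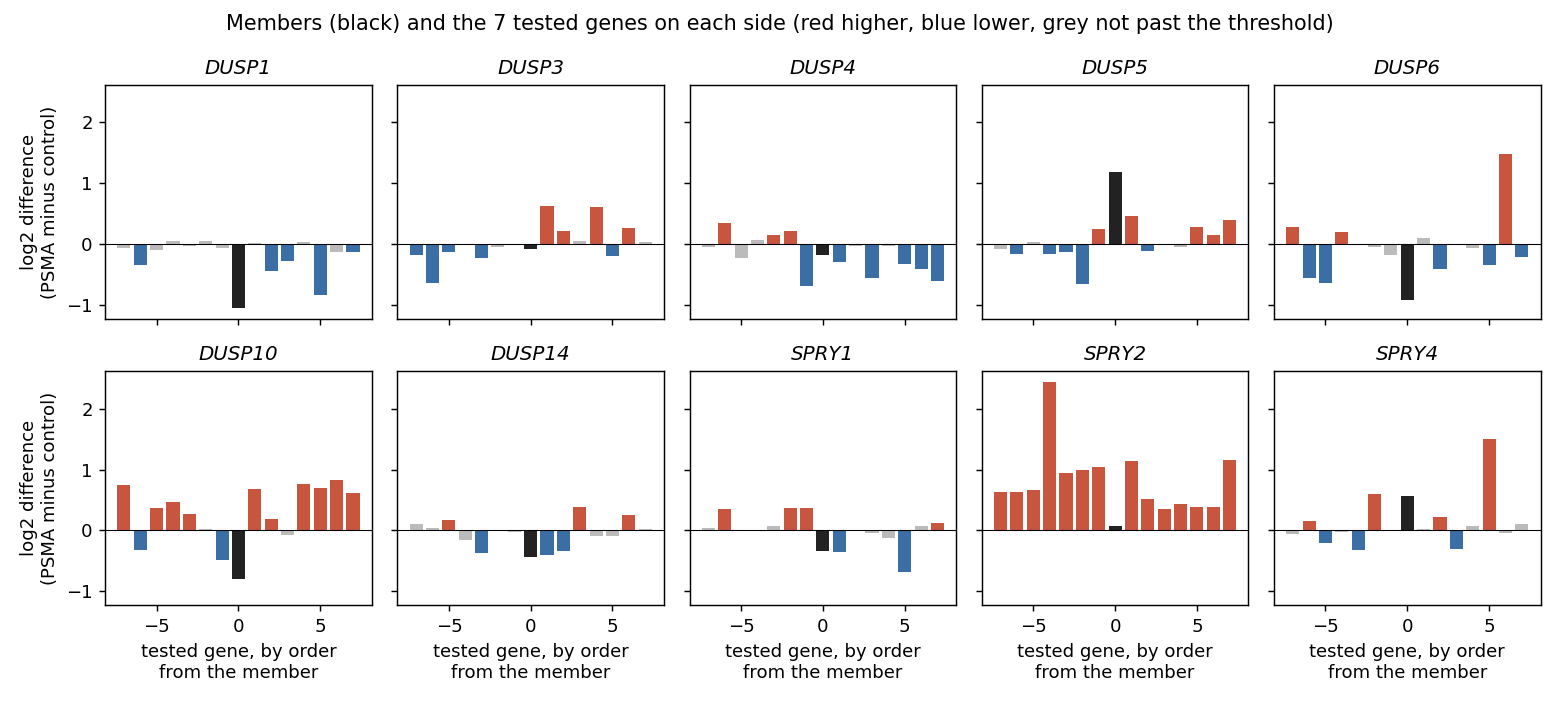
Log2 difference (PSMA minus control) of each member (black bar, at 0) and of the 7 tested genes on each side, in chromosome order; red bars rose, blue fell and grey did not pass the limma threshold. All 14 bars around SPRY2 are red, and the DUSP10 bar points down among 10 red bars.

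Other genes of the pathway are given as control mean and then PSMA mean. Other dual-specificity phosphatases were also split. Of 18 listed genes 10 had a probe set and 6 were tested. Of these, 2 rose and 2 fell, where 30.1% of all tested genes rose and 33.5% fell. Their median log2 difference was -0.04 (all tested genes: -0.01). DUSP7, a cytoplasmic ERK phosphatase close to DUSP6, went from 297 ± 7.78 to 431 ± 24.5 (SD, n = 3), a log2 difference of 0.53 (limma adjusted p = 3.63e-05), opposite to DUSP6. DUSP12 rose by 0.43. DUSP2, a nuclear phosphatase best known from immune cells, was dim and read 70.0 ± 2.22 and 43.0 ± 3.21; it passed the filter on the 3 control arrays alone, so its place among the 2 that fell came with its selection. The catalytically inactive relative STYXL1 fell by 0.35 on the log2 scale.

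Of 19 listed genes for other brakes on RAS and ERK, 11 had a probe set and 5 passed the filter and were tested. Of these, 2 rose and 2 fell, where 30.1% of all tested genes rose and 33.5% fell. PEBP1, a phosphatidylethanolamine-binding protein that dampens ERK signalling, went from 1746 ± 45.1 to 2116 ± 71.6 (SD, n = 3; log2 difference 0.28, limma adjusted p = 0.00076). SPRED2, a Sprouty-related inhibitor, rose by 0.15 (limma adjusted p = 0.0441). CBLB, a ubiquitin ligase that removes receptors, fell by 0.51, and PAQR3, a Golgi membrane protein, fell by 0.37 on the log2 scale.

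The RAS to ERK cascade itself showed small differences. Among its 15 tested genes, 6 fell and 2 rose, where 33.5% of all tested genes fell and 30.1% rose. Of the 15, 0 changed by 2-fold or more, against 4.41% of all tested genes. The median log2 difference was -0.05. The adaptor SHC1 rose by 0.14 and the ERK-activated kinase RPS6KA3 by 0.11. RPS6KA2, its relative, fell from 85.8 ± 2.28 to 52.1 ± 4.22 (SD, n = 3), and the RAF kinase gene ARAF from 137 ± 3.02 to 94.6 ± 3.85. RPS6KA2 exceeded the filter only on the control arrays and PSMA replicate 5, so its fall came in part with its selection. MAP2K1, which encodes MEK1, fell by 0.14, while the value of MAPK3, which encodes ERK1, was -0.02 and missed the threshold.

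Genes used as ERK outputs went both ways, as did all tested genes, of which 30.1% rose and 33.5% fell. Of 18 outputs tested, 7 rose and 6 fell, with a median of 0.01. UPP1, uridine phosphorylase, went from 328 ± 7.30 to 635 ± 22.9 (SD, n = 3) and EMP1, a membrane protein, from 938 ± 69.0 to 1631 ± 35.7. IER3, an early response gene, fell from 4818 ± 97.4 to 2236 ± 42.6, and PHLDA1 fell from 4045 ± 68.5 to 2245 ± 37.4. ETV4 and ETV5, ETS factors induced with DUSP6 and SPRY4 by growth factor signalling, had log2 differences of -0.00208 (not past the threshold) and 0.30, while their relative ETV1 fell by 0.79 (limma adjusted p = 4.11e-06). EGR1 and FOS, the classical immediate early genes, lay below the filter, at 15.5 ± 1.07 and 11.8 ± 0.971 on control arrays and 13.6 ± 0.673 and 9.53 ± 2.23 on PSMA arrays.

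Among the MAP kinases these phosphatases act on, 5 of 10 listed genes were tested, of which 3 fell and 1 rose. Of all tested genes, 33.5% fell and 30.1% rose. MAPK7, which encodes the large kinase ERK5, went from 183 ± 13.8 to 56.1 ± 2.06 (SD, n = 3). This 3.25-fold fall had a log2 difference of -1.70 (limma adjusted p = 1.37e-07). MAPK7 read 53.7 to 57.4 on the PSMA arrays, just above the filter value of 52.5. Neighbouring genes were compared for the members only, so whether genes around MAPK7 on its chromosome also fell was not tested. MAPK13, which encodes a p38 isoform, fell by 0.81, and MAPK12, another p38 isoform, was the one counted as higher, with a log2 difference of 0.30, but it passed the filter on the 3 PSMA arrays alone, so a difference came with its selection. MAPK9, which encodes a JNK, fell by 0.28. The lists overlap in MAPK3.

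**Figure D4:**
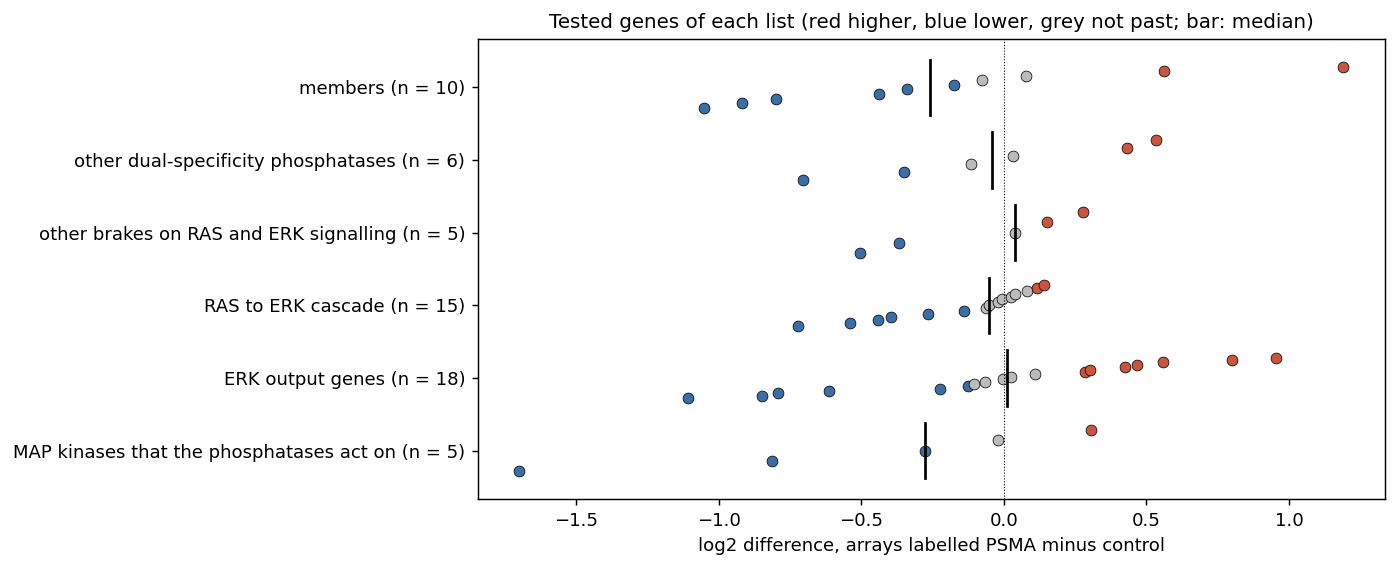
Log2 difference (PSMA minus control) of the tested genes of each list; each point is a gene (red higher, blue lower, grey not past the limma threshold) and the bar is the list's median. The 10 members run from -1.05 (DUSP1) to 1.19 (DUSP5), while the 15 cascade genes run from -0.72 to 0.14.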

How the data were processed

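RNA of 6 PC3 samples was measured on arrays. The deposited table holds 1 intensity per probe set and array, made by the authors with GCRMA per the submitters' processing notes; its version, scale and any later step are not given in the sources used here. Values ran from 3.76 to 17455 and were taken as linear intensities in arbitrary units. The number of arrays limits precision.

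Values were log2-transformed with no pseudocount. Probe sets were kept if they exceeded 52.5, the table's median, on 3 or more arrays; 62 control probe sets were dropped. A gene was read from the brightest probe set annotated to it alone. The groups were compared by limma (version 3.58.1, R 4.3.3; lmFit, eBayes, two-sided, Benjamini-Hochberg over 7035 genes); the procedure was tested on simulated data. Named genes are the 10 members, FOLH1, and in each pathway list the 2 largest increases and 2 largest decreases past the threshold; other genes, neighbours among them, were named after their values were seen. Members and lists were chosen with earlier results of these data known. Plots used Python 3.11.15 and matplotlib 3.10.9. Alternatives covered the filter, normalization, pseudocount, floor, probe set choice, variance prior, minimum fold and each replicate.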

Additional observations from a re-analysis of the deposited data

How the results depend on the processing

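Each member was refitted under 16 alternatives, 6 of which leave out 1 array. No member changed sign. DUSP1, DUSP5, DUSP6 and SPRY2 kept their side of the threshold in all 16; DUSP10, DUSP14, SPRY1 and SPRY4 missed it only in the test against a minimum fold of 1.5, DUSP4 in 6 alternatives, and DUSP3 passed it in 1, the mean of its probe sets, since its dimmer probe sets differ more. The cause of the DUSP4 losses was not tested. The number of members called was 8; it was 3 against a minimum fold of 1.5, and 7 to 8 when 1 array was left out. Of all tested genes, 4476 were called, 526 against that fold and 3999 to 4442 without 1 array; with every probe set as its own row, 6846 of 11303 were called. Without the filter 38.6% of 11963 genes were called and 7 members. No paired analysis was possible because the groups share no replicate number. GCRMA can compress dim values towards a common level, so small differences there may not be resolved. Its effect on these values was not tested.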

Other observations

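Several further dual-specificity phosphatase genes gave signals below the filter and were not tested. DUSP9, a cytoplasmic ERK phosphatase, read 33.3 ± 2.30 (SD, n = 3) on the control group and 48.5 ± 3.39 on the PSMA group. DUSP8, which acts on stress kinases, read 55.8 ± 5.06 and 42.1 ± 3.56. DUSP26 read 20.8 ± 0.996 and 23.3 ± 1.31, and DUSP21 read 9.95 ± 0.637 and 10.1 ± 0.295. The groups did not overlap for DUSP9 and DUSP26, higher on the PSMA group, and DUSP8, lower on it. Of all tested genes, 69.5% had groups that did not overlap. That share covers only genes past the filter, so it is no base rate for these dim genes.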
